A study of Mus musculus with 222 samples.

Results

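The 10 genes described here encode the proteins that mouse mammary epithelium puts into milk, and parts of the machinery that secretes milk fat. They were chosen by name. They comprised the caseins Csn1s1, Csn1s2a, Csn2 and Csn3, the whey proteins Wap and Lalba, the mucin-like Glycam1, the fat globule genes Btn1a1 and Xdh, and Olah. Each gene was read from the probe set that carried its symbol alone and had the highest mean over all arrays. Of the 10 genes, 9 had such a probe set, out of 19938 genes measured in that way. Lalba was not measured, because its probe set also carries the symbol Trip12.

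The arrays (Affymetrix mouse gene 1.0 ST) held 212 tumors of female MMTV-ErbB2 mice, 2 of them by name measured on 2 arrays (214 tumor arrays), and 8 normal mammary glands. In these mice the promoter of the mouse mammary tumor virus, active mainly in mammary epithelium, drives the ErbB2 proto-oncogene. The tumor arrays were 160 from F1BX mice (the F1 backcrossed to FVB/N), which hold both repeats, 28 from F1 mice (C57BL/6 x FVB/N) and 26 from FVB/N mice. The glands were of F1 MMTV-ErbB2 (2), FVB MMTV-ErbB2 (3) and F1 wild type (3) genotype. The ErbB2 glands thus carry the same transgene as the tumors. Neither age nor reproductive state of the gland donors is given in the sources used here. By name, several mice gave more than 1 tumor. Tumors of the same mouse are related, and nothing in the sources says how the glands of a group were sampled, so p-values for glands measure only the spread between these arrays.

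All values are log2 signals after RMA normalization, so a difference of 1 is a 2-fold difference. The arrays fell into sets that differ in the spread of their values. The interquartile range was 1.86 to 2.62 in 34 narrow arrays, which held all 8 glands and arrays of 20 F1BX and 6 F1 tumors. It was 3.04 to 3.35 in 188 wide arrays, each of a different tumor. Between narrow and wide F1BX tumors 84.6% of all probe sets differed (limma, adjusted p under 0.05). Of the 9 milk genes only Glycam1 differed there, with 8.30 ± 2.36 (SD, n = 20) in narrow and 6.91 ± 1.79 (SD, n = 140) in wide F1BX tumors (difference 1.41, adjusted p = 0.00221). Tumor groups were therefore compared with each other only within a set, except where both sets are said to be pooled. Tumors and glands were compared within the narrow arrays and also over all arrays, where wide tumors are set against narrow glands. Erbb2, the gene of the transgene, had a median of 12.42 over tumor arrays, 9.05 to 10.48 in ErbB2 glands and 8.26 to 8.35 in wild type glands. In the narrow tumors 092T1, F1_26T1 and 076T1 it was 8.32, 9.72 and 10.31, at or below the highest gland. FVB ErbB2 gland replicate 3 stood apart, with the lowest interquartile range of all arrays (1.86).

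Caseins form the micelles that carry calcium and phosphate in milk. Csn3, the kappa casein, caps and stabilizes the micelle. Wap, the whey acidic protein, is a major rodent whey protein, and Lalba, alpha-lactalbumin, turns the Golgi galactosyltransferase into lactose synthase. Btn1a1 and Xdh, which is also an enzyme of purine breakdown, sit at the apical membrane that wraps fat droplets as they leave the cell, and Olah is the thioesterase that releases medium-chain fatty acids during milk fat synthesis. Glycam1 is made both by mammary epithelium, which secretes it into milk, and by high endothelial venules of lymph nodes, where it was first known as an L-selectin ligand. In the normal gland most of these genes are switched on in alveolar luminal cells by prolactin, whose receptor activates JAK2 and STAT5. STAT5 dimers bind DNA at the motif TTCNNNGAA.

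Promoters are shown for 3 caseins that moved together across tumors, and for Wap and Glycam1, the genes with the largest tumor and gland differences. Each runs from 250 bases before to 50 bases after the RefSeq start (GRCm38.p6), 5′ to 3′ on the gene's strand, with matches to TTCNNNGAA in capitals.
Csn1s1 (chr5:87665958-87666257, plus strand): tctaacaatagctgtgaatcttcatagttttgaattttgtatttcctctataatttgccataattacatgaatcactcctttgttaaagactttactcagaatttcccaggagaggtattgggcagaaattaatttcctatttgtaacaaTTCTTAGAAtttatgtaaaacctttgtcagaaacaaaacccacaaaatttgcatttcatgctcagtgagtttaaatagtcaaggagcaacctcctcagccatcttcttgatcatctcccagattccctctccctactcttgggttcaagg
Csn2 (chr5:87699376-87699675, minus strand): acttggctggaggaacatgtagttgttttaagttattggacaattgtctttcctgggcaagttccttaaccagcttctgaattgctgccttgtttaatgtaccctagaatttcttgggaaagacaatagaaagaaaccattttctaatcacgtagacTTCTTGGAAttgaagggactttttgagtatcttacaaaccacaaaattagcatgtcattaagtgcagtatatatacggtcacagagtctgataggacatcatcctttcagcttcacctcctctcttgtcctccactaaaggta
Csn1s2a (chr5:87774200-87774499, plus strand): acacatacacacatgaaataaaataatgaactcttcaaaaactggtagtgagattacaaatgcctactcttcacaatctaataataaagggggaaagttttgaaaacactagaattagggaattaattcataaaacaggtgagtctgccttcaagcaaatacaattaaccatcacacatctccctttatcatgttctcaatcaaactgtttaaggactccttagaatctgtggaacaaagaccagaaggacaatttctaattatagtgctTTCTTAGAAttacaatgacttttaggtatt
Glycam1 (chr15:103565032-103565331, minus strand): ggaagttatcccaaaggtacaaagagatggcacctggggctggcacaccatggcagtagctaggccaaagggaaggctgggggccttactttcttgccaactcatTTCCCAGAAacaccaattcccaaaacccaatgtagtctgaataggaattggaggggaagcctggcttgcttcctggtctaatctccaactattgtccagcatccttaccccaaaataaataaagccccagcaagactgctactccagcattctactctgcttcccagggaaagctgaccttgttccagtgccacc
Wap (chr11:6638600-6638899, minus strand): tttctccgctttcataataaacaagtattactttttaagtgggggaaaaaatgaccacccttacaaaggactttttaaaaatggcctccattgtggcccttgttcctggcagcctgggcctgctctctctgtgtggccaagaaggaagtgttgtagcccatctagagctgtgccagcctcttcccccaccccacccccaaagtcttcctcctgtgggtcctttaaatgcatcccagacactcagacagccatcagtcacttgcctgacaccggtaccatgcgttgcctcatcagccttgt

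The motif reads the same on either strand and was the only motif searched. It was found in 4 of the 6 measured genes with a promoter in the table, against 8.30% of 32851 mouse promoters of the same length. Its first base lay 100 bases upstream of the start in Csn1s1, 93 upstream in Csn2, 145 upstream in Glycam1 and 21 downstream in Csn1s2a. Neither Wap nor Olah (chr2:3366520-3366819, minus strand) held these letters in this window. A match in sequence is not a measured binding site. Csn1s1, Csn2 and Csn1s2a lie in a row on chromosome 5, with predicted genes left out. Csn3 lies further along the same chromosome, Wap on chromosome 11, Glycam1 on chromosome 15, Btn1a1 on chromosome 13, Xdh on chromosome 17 and Olah on chromosome 2.

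The milk genes did not move as a block between tumors and glands. Glycam1 and Wap were lower in tumors and Xdh was higher. The caseins Csn1s1, Csn1s2a and Csn2 were at gland level in many tumors and 4-fold or more below it in others. Over all arrays the strict call (limma, adjusted p at most 0.005 and at least 2-fold) was met by 28.2% of all probe sets, 17.5% higher and 10.7% lower in tumors. It was met by 3 of the 9 genes, 2 lower and 1 higher. The median difference was -1.36 over the 9 genes and -0.11 over all probe sets. Within the narrow arrays, where glands and tumors share a set, 12.1% of all probe sets were called, 7.37% higher and 4.76% lower in tumors, and 2 of the 9 genes, Glycam1 and Xdh. There, Wap was also called without F1 ErbB2 gland replicate 1 (-2.61, adjusted p = 0.00419) or without FVB ErbB2 gland replicate 2 (-2.69, adjusted p = 0.00305). Without the 3 tumors of low Erbb2, 4 genes were called, with Wap at -2.57 (adjusted p = 0.00107) and Csn3 called higher at 1.10 (adjusted p = 1.63e-05). In bulk tissue, fewer cells of a type and less RNA per cell cannot be told apart.

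**Figure D1:**
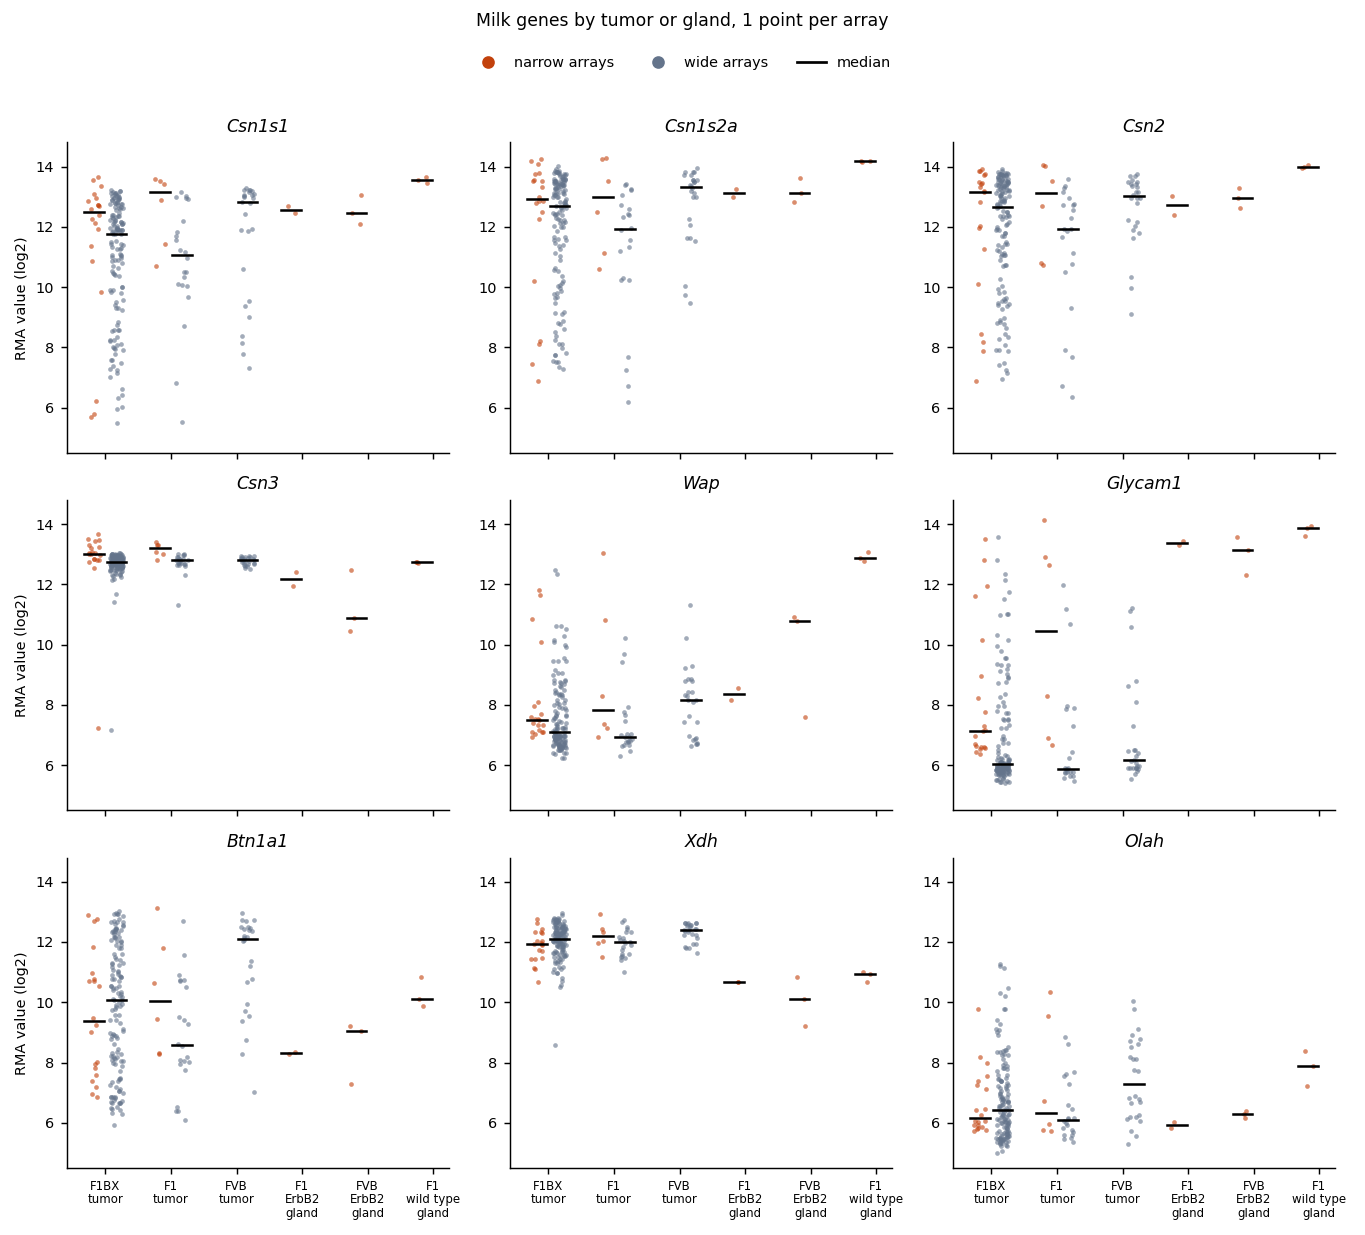
Log2 signal (y axis) of each of the 9 measured milk genes by group (x axis), 1 point per array, with wide and narrow arrays in different colors and a bar at each group's median. Csn3 and Xdh are tight, the other caseins and Btn1a1 spread over more than 6 log2 units in F1BX tumors, and Glycam1 is at 12.31 or above in every gland.

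Glycam1 showed the largest difference between tumors and glands. Its signal ran from 6.37 through a median of 7.22 to 14.13 in the 26 narrow tumors. In glands it was 13.32 and 13.44 (F1 ErbB2), 13.16, 13.58 and 12.31 (FVB ErbB2), and 13.61, 13.93 and 13.88 (F1 wild type). Most tumors lay far below every gland, but not all did. Of the narrow tumors, 21 were below the lowest gland, 4 were within the gland range and 1 was above it, and of the wide tumors 185 of 188 were below. The mean was 8.75 ± 2.68 (SD, n = 26) in narrow tumors and 13.40 ± 0.51 (SD, n = 8) in glands, a difference of -4.65 (standard error, SE, 0.91, limma adjusted p = 5.94e-05), or 25.1-fold lower. Against the wild type glands alone it was -5.06 and no longer met the strict call (adjusted p = 0.00730), while against the ErbB2 glands alone it was -4.41 (adjusted p = 0.00222). Over all arrays the difference was -6.25 (SE 0.71, limma adjusted p = 1.31e-15), and -4.64 with the set of arrays as a term. No detection values came with the arrays, so the lowest Glycam1 signals, near 6, are not shown to be above background.

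Wap was low in most tumors and in most ErbB2 glands. Narrow tumors ran from 6.93 through a median of 7.51 to 13.03, and wide tumors from 6.25 through 7.14 to 12.47. The ErbB2 glands had 8.17 and 8.58 (F1) and 10.80, 7.61 and 10.90 (FVB). The 3 wild type glands had 12.86, 13.07 and 12.78, a level that 1 of the 212 tumors reached. Of the tumors, 114 of 188 wide and 16 of 26 narrow were below the lowest gland and none was above the highest, and tumors overlapped the ErbB2 glands. The mean was 7.74 ± 1.30 (SD, n = 212, repeat arrays averaged) in tumors over all arrays, against 10.60 ± 2.24 (SD, n = 8) in glands, a difference of -2.86 (SE 0.48, limma adjusted p = 2.48e-08). In the narrow arrays the difference of -2.27 had an adjusted p of 0.00938 and was not called. Against the ErbB2 glands alone it was -0.88 (adjusted p = 0.380) and against the wild type glands alone -4.57 (adjusted p = 0.000466). The size of the Wap difference between tumors and glands thus depended on the genotype of the glands it was taken against.

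In 8 tumors Glycam1 was at or above the lowest gland, and Csn2 and Wap were also high in these tumors. Their Csn2 was 13.48 to 14.04, against 6.37 to 13.93 on the other 206 tumor arrays, and their Wap 8.28 to 13.03, with a median of 10.47 against 7.19. Csn3 and Xdh hardly differed, with medians of 12.83 against 12.79 and of 12.24 against 12.10. These comparisons pool both sets of arrays. Of the 8 tumors 5 were narrow, against 21 of the other 206 arrays, and the part of the sets in these differences was not tested. F1_26T1 had the highest tumor signals of Wap (13.03) and Glycam1 (14.13), and its Erbb2 was 9.72. Tumor 182T1 had Wap at 11.81 and Glycam1 at 13.50, and 247T2 had Wap at 12.34 and Glycam1 at 13.57. In 292T3 and F1_6T1, Glycam1 was 12.80 and 12.90 while Wap was 8.72 and 8.28, so high Glycam1 also came with Wap far below the wild type glands. Of the 6 narrow F1 tumors 3 were among the 8, and of the 20 narrow F1BX tumors 2 were. The ranges of their cell type lists overlapped those of the other tumors, but several medians were higher in the wide tumors of the 8. The basal and myoepithelial list averaged 7.18 to 8.88 in the 5 narrow tumors of the 8, against 7.03 to 8.72 on the other 21 narrow tumor arrays, and 8.05 to 10.46 in glands, with medians of 8.15 and 7.62 for the tumors. It averaged 7.56 to 8.17 in the 3 wide tumors, against 6.75 to 8.63 in the other 185, with medians of 7.87 and 7.32. The 8.72 was that of 076T1, a tumor of low Erbb2 with Wap at 11.66. The luminal list averaged 10.13 to 11.54 in the 5 narrow tumors (others 7.85 to 11.13), with medians of 11.03 and 10.39. In the 3 wide tumors it averaged 10.36 to 10.83 (others 8.24 to 11.41), with medians of 10.82 and 10.76. The high endothelial venule and lymph node list averaged 6.74 to 6.94 in these narrow tumors (others 6.64 to 7.54, glands 7.63 to 8.85) and 5.85 to 6.53 in these wide tumors (others 5.71 to 6.86). Its medians were 6.81 and 6.79 in the narrow arrays, and 6.22 and 5.99 in the wide arrays. The B and plasma cell list averaged 5.92 to 7.09 in these narrow tumors (others 6.01 to 6.92) and 5.53 to 7.18 in these wide tumors (others 5.25 to 7.18). Its medians were 6.16 and 6.18 in the narrow arrays, and 6.62 and 5.60 in the wide arrays. For the adipocyte list they were 6.78 and 6.86, and 8.00 and 6.53. For the T cell list they were 6.47 and 6.48, and 6.34 and 6.11. With 3 such wide tumors, these differences were not tested. F1_26T1 had the lowest B and plasma cell mean of all narrow tumors and the highest basal mean, F1_6T1 had the highest B and plasma cell mean of the narrow tumors, and 292T3 had the highest adipocyte mean of all wide tumors (10.13, others 5.99 to 9.38). Across wide tumors Glycam1 had a Spearman correlation of 0.16 with the mean of the venule and lymph node list.

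Many genes of the lists for other cell types were, like Glycam1, lower in tumors than in glands, but macrophage genes were not. Of all probe sets, 17.5% were called higher and 10.7% lower over all arrays, and 7.37% and 4.76% within the narrow arrays. Over all arrays 5 of 6 measured venule and lymph node genes, 5 of 5 B and plasma cell genes, 6 of 6 T cell genes and 7 of 8 basal genes were called lower in tumors, and within the narrow arrays 3, 4, 6 and 6 were. Of 7 endothelial genes 4 were called lower over all arrays and 6 in the narrow arrays. Of 6 macrophage genes 1 was called higher and 1 lower over all arrays, and the list mean was 7.58 to 10.14 in narrow tumors, 7.99 to 11.02 in wide tumors and 8.14 to 9.56 in glands. The mean level of the T cell list was 6.29 to 6.71 in narrow tumors and 7.59 to 9.21 in glands. That of the B and plasma cell list was 5.92 to 7.09 in narrow tumors and 7.34 to 9.60 in glands. The part of these cells in the Glycam1 and Wap differences was not tested.

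Xdh was the milk gene called higher in tumors in both comparisons. Its signal was 10.69 to 12.92 in narrow tumors and 9.22 to 11.01 in glands, with 25 of 26 narrow and 179 of 188 wide tumors above the highest gland. The narrow tumors averaged 11.94 ± 0.53 (SD, n = 26) and the glands 10.51 ± 0.59 (SD, n = 8), a difference of 1.42 (SE 0.21, limma adjusted p = 7.73e-07), or 2.68-fold. Against the wild type glands alone it was 1.07, with an adjusted p of 0.00521 just past the limit of 0.005, so that it was not called. Against the ErbB2 glands alone it was 1.64 (adjusted p = 4.31e-06). Over all arrays it was 1.53 (SE 0.20, limma adjusted p = 2.78e-12). The groups therefore overlapped in few arrays, and the lowest tumor signal, 8.57, was that of 168T1.

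**Figure D2:**
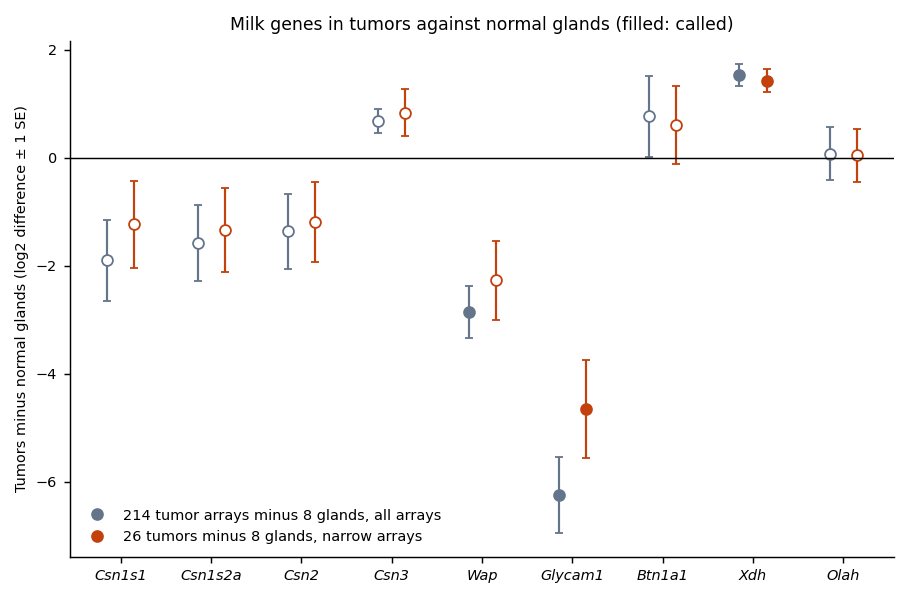
Log2 difference, tumors minus normal glands (y axis), for each of the 9 milk genes (x axis), with bars of 1 SE, in the narrow arrays and in all arrays. Filled points were called. Glycam1 (-4.65 narrow, -6.25 all) and Xdh (1.42 narrow, 1.53 all) were called in both, Wap in all arrays only.

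The casein Csn3 behaved differently from the other 3. Its signal was 12.76 at the median of wide tumors (7.17 to 13.06) and 13.04 at that of narrow tumors (7.23 to 13.68). Glands had 12.40 and 11.94 (F1 ErbB2), 12.49, 10.88 and 10.45 (FVB ErbB2), and 12.71, 12.74 and 12.73 (F1 wild type). Narrow tumors were mostly above the glands, with 24 of 26 above every gland. Of the wide tumors 53.7% were above every gland and 39.9% were below the lowest wild type gland. The difference was 0.68 over all arrays (adjusted p = 0.00351 from limma), under 2-fold, and 0.84 in the narrow arrays (adjusted p = 0.105). Only 168T1 in the wide and 092T1 in the narrow arrays were below all glands, at 7.17 and 7.23. Tumor 092T1 is the one with the lowest Erbb2, and 168T1 also had Csn2 at 7.26.

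Csn2, the beta casein, ranged from 6.87 through 13.16 to 14.04 in narrow tumors and from 6.37 through 12.71 to 13.93 in wide tumors. In glands it was 12.40 and 13.03 (F1 ErbB2), 13.29, 12.62 and 12.97 (FVB ErbB2), and 13.95, 14.05 and 13.99 (F1 wild type). The upper tumors reached the glands and none exceeded the highest gland, while the lowest fell over 5 log2 units short of any gland. The difference was -1.36 over all arrays (adjusted p = 0.0611) and -1.19 in the narrow arrays (adjusted p = 0.178), and was not called. Csn1s1 differed by -1.90 (adjusted p = 0.0151) and -1.23 (0.198), and Csn1s2a by -1.58 (0.0329) and -1.34 (0.145), all from limma. By the SAM statistic over all arrays, Csn1s1 (-1.87) and Csn1s2a (-1.57) were also called lower in tumors. Of the wide tumors 61.2% were below the lowest gland for Csn1s1, 54.3% for Csn1s2a and 46.3% for Csn2. More than 4-fold below it were 56, 46 and 40 wide tumors, 30 of them for all 3 caseins together and 65 for at least 1.

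Btn1a1 and Olah were not called in either set of arrays. Btn1a1 ran from 6.84 to 13.13 in narrow tumors and from 7.29 to 10.84 in glands, so that 3 narrow tumors were below all glands and 7 above. Among wide tumors 30 were below and 75 above. The difference was 0.61 in the narrow arrays (adjusted p = 0.490 from limma). Olah ran from 5.72 to 10.34 in narrow tumors and from 5.82 to 8.39 in glands, a difference of 0.04 (adjusted p = 0.948 from limma). The highest Btn1a1 signal of all (13.13) and the highest Olah signal of the narrow tumors (10.34) were both in F1_6T1.

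Other genes of milk synthesis, from lists fixed by name, changed in either direction. Over all arrays 17.5% of all probe sets were called higher in tumors and 10.7% lower, and in the narrow arrays 7.37% and 4.76%. Of 10 measured genes of prolactin and STAT5 signaling, 6 were called higher in tumors over all arrays and within the narrow arrays. Among them Elf5, an alveolar transcription factor, rose by 2.23 and Socs2, a feedback inhibitor induced by STAT5, by 2.24 in the narrow arrays, and Jak2 fell by 1.91. Of 16 genes of milk fat synthesis, 7 were called higher and 2 lower over all arrays, and 5 and 1 in the narrow arrays. The fatty acid synthase Fasn rose by 1.21 and the desaturase Scd2 by 3.79, and the lipoprotein lipase Lpl fell by 1.93 in the narrow arrays. Of 10 genes of lactose synthesis and transport, 3 were called higher in the narrow arrays, with the water channel Aqp5 at 2.57 and the phosphate transporter Slc34a2 at 2.12, and Pgm2 fell by 1.27. Of 14 other milk protein genes 1, the folate receptor Folr1 (1.23), was called in the narrow arrays, not above the share of all probe sets. The median differences of the 4 lists there were 1.34, 0.52, 0.67 and 0.04, against -0.09 over all probe sets. In the luminal epithelium list Cldn7 and Cldn3 were called higher and Krt19 lower. The mean of its 8 genes was 7.85 to 11.54 in narrow tumors and 9.60 to 11.64 in glands.

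Within the normal glands, milk gene signals were lower in ErbB2 than in wild type glands. Every one of the 5 ErbB2 glands was below every wild type gland for 8 of the 9 genes, all but Xdh, while 4.14% of all probe sets had that order. The FVB ErbB2 glands also differ from the wild type glands in background. For Wap the F1 ErbB2 glands averaged 8.37 ± 0.29 (SD, n = 2) and the F1 wild type glands 12.90 ± 0.15 (SD, n = 3), a difference of -4.53. For Olah the F1 ErbB2 glands had 5.82 and 6.02, and the wild type glands 7.22, 8.39 and 7.89. For Btn1a1 the values were 8.27 and 8.35 in F1 ErbB2 glands, and 9.86, 10.84 and 10.09 in F1 wild type glands. Glycam1 and Csn3 were also ordered by genotype, but the nearest glands were close, at 13.58 and 13.61 for Glycam1 and 12.49 and 12.71 for Csn3.

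Whether this difference was called depended on where the spread was taken from. In the fit of all narrow arrays, which shares the spread of the tumors, 0.92% of all probe sets were called (limma, adjusted p under 0.05) and 0 of the 9 genes, 1 of which, Wap, had an unadjusted p under 0.05 (SE 1.47, adjusted p = 0.168). With the F1 glands alone 3.34% of all probe sets were called, 1.16% lower in ErbB2 glands, and 6 of the 9 genes, all lower. Wap then had a SE of 0.19 (adjusted p = 7.57e-05), Btn1a1 a difference of -1.96 (SE 0.27, adjusted p = 0.0135) and Olah of -1.91 (SE 0.30, adjusted p = 0.0186). Csn2 fell by 1.29 (adjusted p = 0.0201), Csn1s2a by 1.06 (adjusted p = 0.0170) and Csn1s1 by 0.98 (adjusted p = 0.0227). Csn3 (-0.56, adjusted p = 0.152), Glycam1 (-0.43, adjusted p = 0.241) and Xdh (-0.21, adjusted p = 0.616) were not called. With the gland number as a block 2.89% of all probe sets were called, Csn1s1 was no longer called (adjusted p = 0.0605) and 5 of the 9 genes were.

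**Figure D3:**
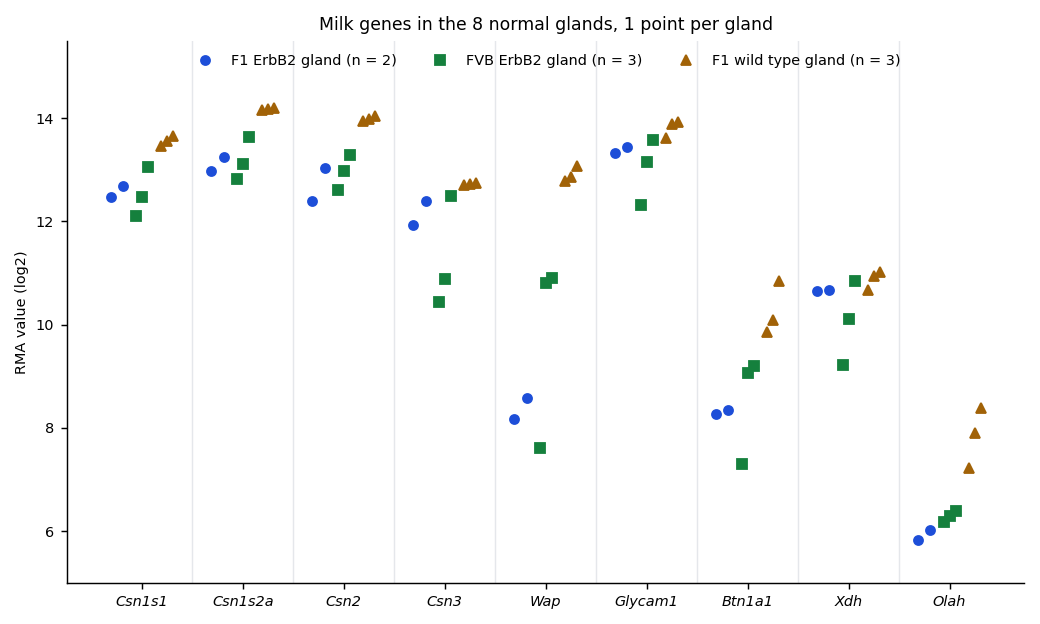
Log2 signal (y axis) of each milk gene (x axis) in the 8 normal glands, 1 point per gland, with F1 ErbB2, FVB ErbB2 and F1 wild type glands in different colors and shapes. Wap is between 7.61 and 10.90 in the ErbB2 glands and between 12.78 and 13.07 in the wild type glands, while Xdh overlaps between the genotypes.

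Other cell types differed between the same glands. In the fit of all narrow arrays 0.92% of all probe sets were called between F1 ErbB2 and F1 wild type glands. The basal and myoepithelial list averaged 8.05 to 9.28 in the ErbB2 glands and 10.31 to 10.46 in the wild type glands, and the luminal list 9.60 to 10.67 and 10.96 to 11.64. In the fit of all narrow arrays the contractile genes Mylk (-1.31), Myh11 (-2.16) and Cnn1 (-2.79) were called lower in F1 ErbB2 than in F1 wild type glands, 3 of the 8 basal genes, and 0 of 8 luminal genes. Of 6 T cell genes 3 were called higher (Cd4 by 1.58, Cd2 by 1.51 and Cd3d by 1.27), with a list mean of 7.69 to 9.21 in ErbB2 and 7.59 to 8.55 in wild type glands. The part of these cell types in the milk gene differences between glands was not tested.

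Between F1 and FVB ErbB2 glands 0 of the 9 genes were called (limma, adjusted p from 0.475 upward, 0 at an unadjusted p under 0.05), with 0.0112% of all probe sets called and 5989 at an unadjusted p under 0.05. The count of called probe sets rested on single glands, with 6206 without FVB replicate 1 and 3169 without FVB replicate 2, but 0 of the 9 genes were called without any 1 gland. The differences ran from -1.40 for Wap to 0.89 for Csn3. The FVB ErbB2 glands covered a wider range, with Csn3 at 12.40 and 11.94 in F1 ErbB2 glands, against 12.49, 10.88 and 10.45 in FVB ErbB2 glands. The F1 ErbB2 glands had the higher mean for Csn3, Xdh, Glycam1 and Csn1s1 and the lower mean for the other 5 genes, and for all 9 genes the wild type glands had the highest mean of the 3 kinds. For Csn1s1 the means of the F1 and FVB ErbB2 glands, 12.58 ± 0.15 (SD, n = 2) and 12.55 ± 0.48 (SD, n = 3), differed by less than their spread.

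Among wide tumors, all 9 milk genes had their highest mean in FVB mice. Btn1a1 had a median of 10.08 in F1BX tumors (5.92 to 13.03), 8.59 in F1 tumors (6.09 to 12.69) and 12.09 in FVB tumors (7.02 to 12.95). All 9 differences of F1BX from FVB tumors and of F1 from FVB tumors were thus negative, and these contrasts share the FVB tumors. Between F1 and FVB, 12.3% of all probe sets were called (limma, adjusted p under 0.05), 6.47% lower in F1, and 2 of the 9 genes, with 6 at an unadjusted p under 0.05.

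Btn1a1 averaged 8.94 ± 1.83 (SD, n = 22) in F1 tumors and 11.27 ± 1.62 (SD, n = 26) in FVB tumors, a difference of -2.38 (SE 0.59, limma adjusted p = 0.00314). Csn1s2a averaged 11.15 ± 2.26 (SD, n = 22) in F1 and 12.74 ± 1.31 (SD, n = 26) in FVB tumors, a difference of -1.62 (SE 0.56, limma adjusted p = 0.0395). The ranges overlapped for both genes, and the Csn1s2a call was lost with 1 array per mouse (adjusted p = 0.0649) and without 051T1 and 063T1, whose names have the form of another background (0.0776). Csn2 differed by -1.38 (adjusted p = 0.0814), Olah by -1.01 (0.0746), Csn1s1 by -0.81 (0.375), Wap by -0.76 (0.130), Xdh by -0.36 (0.123), Glycam1 by -0.11 (0.918) and Csn3 by -0.06 (0.813). Between F1BX and FVB, 6.74% of all probe sets were called, 3.16% lower in F1BX, and 1 of the 9 genes, Btn1a1, with 9.84 ± 2.11 (SD, n = 140) in F1BX tumors and a difference of -1.46 (SE 0.44, limma adjusted p = 0.0230).

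Between F1BX and F1 tumors no milk gene was called in either set of arrays. In the wide arrays 3.65% of all probe sets were called by limma, and 0 of the 9 genes had an unadjusted p under 0.05. Btn1a1 differed by 0.92 (adjusted p = 0.252). In the narrow arrays 0 probe sets were called by limma (1170 at an unadjusted p under 0.05), and the 9 differences were all negative, from -1.95 for Glycam1 to -0.33 for Xdh. The difference between the sets was not called for any gene (limma, adjusted p from 0.858 upward), with 1 gene, Glycam1, at an unadjusted p under 0.05.

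The other milk genes that differed between F1 and FVB wide tumors were mostly lower in F1. Of all probe sets 12.3% were called in this contrast, 6.47% lower in F1. Of 14 other milk protein genes, Lao1 (-2.54), Csn1s2b (-1.86) and Mfge8 (-1.23) were called lower and Muc1 higher (0.78). Of 16 milk fat genes 5 were called lower, with Thrsp at -1.47, the fatty acid carrier Cd36 at -1.41, the droplet coat gene Plin2 at -0.66, Fasn at -0.45 and Acaca at -0.40. Of 10 signaling genes 3 were, with Stat5a at -0.53, Gata3 at -0.49 and Socs2 at -0.41. Of 10 genes of lactose synthesis and transport 1 was, Slc12a2 at -0.32, a count near the share of all probe sets.

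The number of modes over wide tumors differed between the milk genes, but it changed with the bandwidth. A density estimate with Silverman's bandwidth had 2 modes for Csn2 (9.46 and 13.27), Csn1s1 (8.25 and 12.51) and Btn1a1 (8.20 and 12.18), and 3 for Csn1s2a (7.99, 10.11 and 13.29). Csn3 (12.84), Xdh (12.32), Wap (6.85) and Olah (5.88) had 1 mode, and Glycam1 had 4. With 0.75 times the bandwidth Csn3 and Wap had 3 modes, Xdh 4 and Olah 2, so these genes had 1 mode only at wider smoothing. With 1.5 times the bandwidth Csn1s1, Csn1s2a, Csn2 and Btn1a1 had 1 mode each, so the lower modes are shoulders at that smoothing. The lowest point between the modes was 10.17 for Csn2, with 38 of 188 wide tumors below it, 9.0 for Csn1s1, with 38 below, and 9.07 for Btn1a1, with 70 below. By background, Btn1a1 was under that point in 55 of 140 F1BX tumors (39.3%), 12 of 22 F1 tumors (54.5%) and 3 of 26 FVB tumors (11.5%). Csn2 was under its point in 31, 5 and 2 of them.

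Most tumors with low Csn2 had high Csn3, and all were low in Wap and Glycam1. In the 38 wide tumors under the Csn2 low point, the median was 8.03 for Csn1s1, 8.69 for Csn1s2a and 6.85 for Btn1a1, against 11.99, 13.10 and 10.82 in the other 150. Csn3 had a median of 12.67 in the 38 tumors (7.17 to 12.93) and 12.80 in the 150 (11.30 to 13.06). Xdh had 11.63 and 12.27. Wap did not exceed 7.94 and Glycam1 did not exceed 7.35 in any of the 38, whereas they reached 12.47 and 13.57 in the others. Most tumors with high Csn2 were also low in Wap and Glycam1, with medians of 7.48 and 6.11. These groups were cut from the values themselves and are given as a description.

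**Figure D4:**
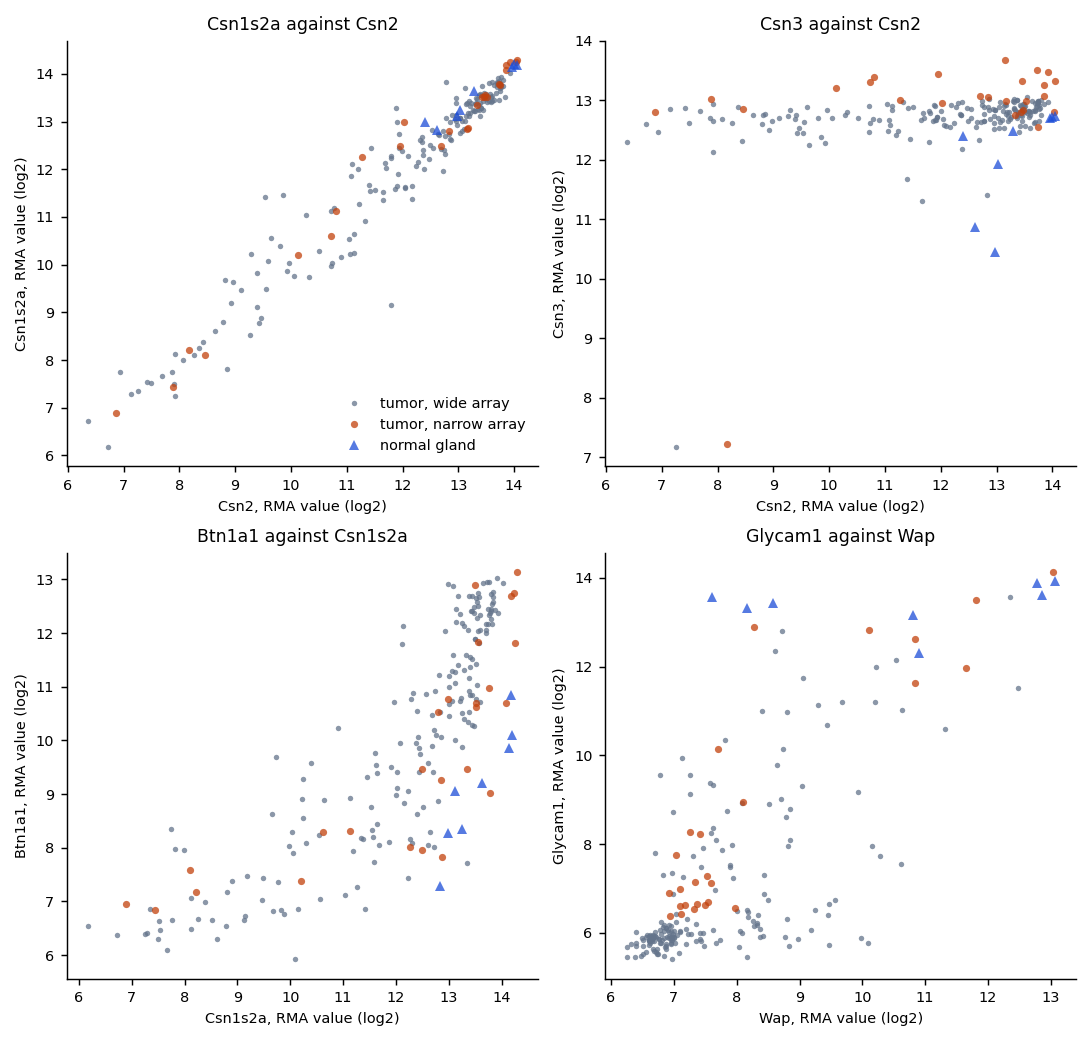
Log2 signals (both axes) of 4 pairs of milk genes, 1 point per array, with narrow tumors, wide tumors and normal glands in different colors. Csn2 and Csn1s2a fall on a line (Spearman 0.96 over wide tumors), Csn3 stays near 12.8 over the range of Csn2, and Btn1a1 rises along Csn1s2a (Spearman 0.89).

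Across tumors the genes differed in how closely they tracked each other. The correlations here are descriptions over 188 wide tumors and over 26 narrow tumors, which share mice and arrays. Csn2 and Csn1s2a had a Spearman correlation of 0.96 in wide and 0.99 in narrow tumors, and Csn1s1 of 0.82 and 0.81 with Csn2. Btn1a1 followed these caseins, with 0.89 and 0.87 against Csn1s2a. Wap and Glycam1 had 0.64 and 0.74 with each other. Wap also had 0.71 and 0.71 with Csn2, and 0.74 and 0.65 with Csn1s2a. In wide tumors Wap was thus no closer to Glycam1 than to these caseins. Csn3 stood apart from the other caseins, with 0.41 and 0.17 against Csn2, and had 0.09 and -0.01 against Glycam1. Its correlation with Erbb2 was 0.47 and 0.71, and that of Xdh with Erbb2 was 0.46 and 0.40. Csn3 and Xdh had 0.57 and 0.25 with each other. Single tumors broke the casein pattern. Tumor 299T6 had Csn1s1 at 12.45 with Csn1s2a at 7.29 and Csn2 at 7.14, and F10T1 had Csn1s1 at 10.51 with Csn2 at 6.37. In 004T1 Csn2 was 6.87 and Csn3 12.80.

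Along the casein cluster, some neighbours had weak correlations with Csn2, but the signals of Prr27 and Sult1e1 were low in most tumors. In gene order, with predicted genes left out, Csn1s1, Csn2, Csn1s2a and Csn1s2b are adjacent, followed by Prr27 and Odam, with Csn3 further on. Csn1s2b, another alpha-S2 casein, had a correlation of 0.83 with Csn2 in wide and 0.75 in narrow tumors. It ran from 5.20 to 12.25 in wide tumors, from 6.04 to 8.71 in narrow tumors and from 6.13 to 7.28 in glands. The highest wide tumor was thus far above every gland, but the glands are all narrow arrays. Within the narrow arrays the median was 6.56 in tumors and 6.84 in glands. Prr27 had correlations of 0.10 and -0.41, and Odam of 0.24 and 0.18. On the other side, Sult1e1 had -0.43 and -0.05. These neighbours thus had weaker correlations with Csn2 than Csn1s2b had. Prr27 ran only from 5.06 to 6.09 in wide tumors. Sult1e1 had a median of 3.98 in wide tumors, where it ran from 3.38 to 8.95, and ran from 3.66 to 4.05 in narrow tumors. Odam reached 11.57 in wide tumors. Without detection values, weak correlations at such low signals cannot show where covariation along the cluster ends.

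Outside the 10 genes, Lao1 recurred among the nearest genes. By Spearman correlation over wide tumors, this amino acid oxidase of milk was among the 3 nearest genes for Csn1s1 (0.75), Csn1s2a (0.83), Csn2 (0.80), Wap (0.81) and Btn1a1 (0.84), with 0.39, 0.62, 0.65, 0.72 and 0.66 in narrow tumors. Btn1a1 was also near Plin2 (0.81 wide, 0.67 narrow) and Btn2a2 (0.81 and 0.68). Xdh was nearest to Plcxd2 (0.80 and 0.68), Nucb2 (0.79 and 0.50) and Cd36 (0.77 and 0.83), and Olah to Mapkbp1 (0.67 and 0.63). Csn3 was nearest to Ero1b, an oxidase of the endoplasmic reticulum (0.63 and 0.53), Nktr (0.61 and 0.55) and the vesicle tether Uso1 (0.60 and 0.32). Glycam1 had its nearest genes at lower values, Hephl1 at 0.61 and 0.58, Gldc at 0.56 and 0.31 and Dkkl1 at 0.55 and 0.50. With the mean of the prolactin and STAT5 list, Btn1a1 had 0.78, Xdh 0.68, Csn2 0.67, Wap 0.63 and Glycam1 0.39 in wide tumors. With the mean of the luminal list, Csn2 had -0.13 and Btn1a1 -0.28.

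No milk gene was called for an effect of the mouse. The share of all probe sets called was also small, so this count says little about the milk genes in particular. Among 77 wide F1BX tumors of 30 mice with at least 2 tumors each, the mouse was called as a factor for 4.72% of all probe sets (moderated F in limma, adjusted p under 0.05) and for 0 of the 9 milk genes (adjusted p from 0.191 to 0.754, 1 at an unadjusted p under 0.05). The median difference in Csn2 was 1.43 over 66 pairs of tumors of the same mouse and 1.36 over 2860 pairs from different mice. For Btn1a1 it was 1.88 and 2.04, and for Glycam1 0.53 and 0.87. The intraclass correlation, the share of variance that lies between mice, was 0.207 for Glycam1, 0.158 for Olah, 0.124 for Wap and at most 0.0135 for the other 6 genes, against a median of 0.0951 over all probe sets.

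**Figure D5:**
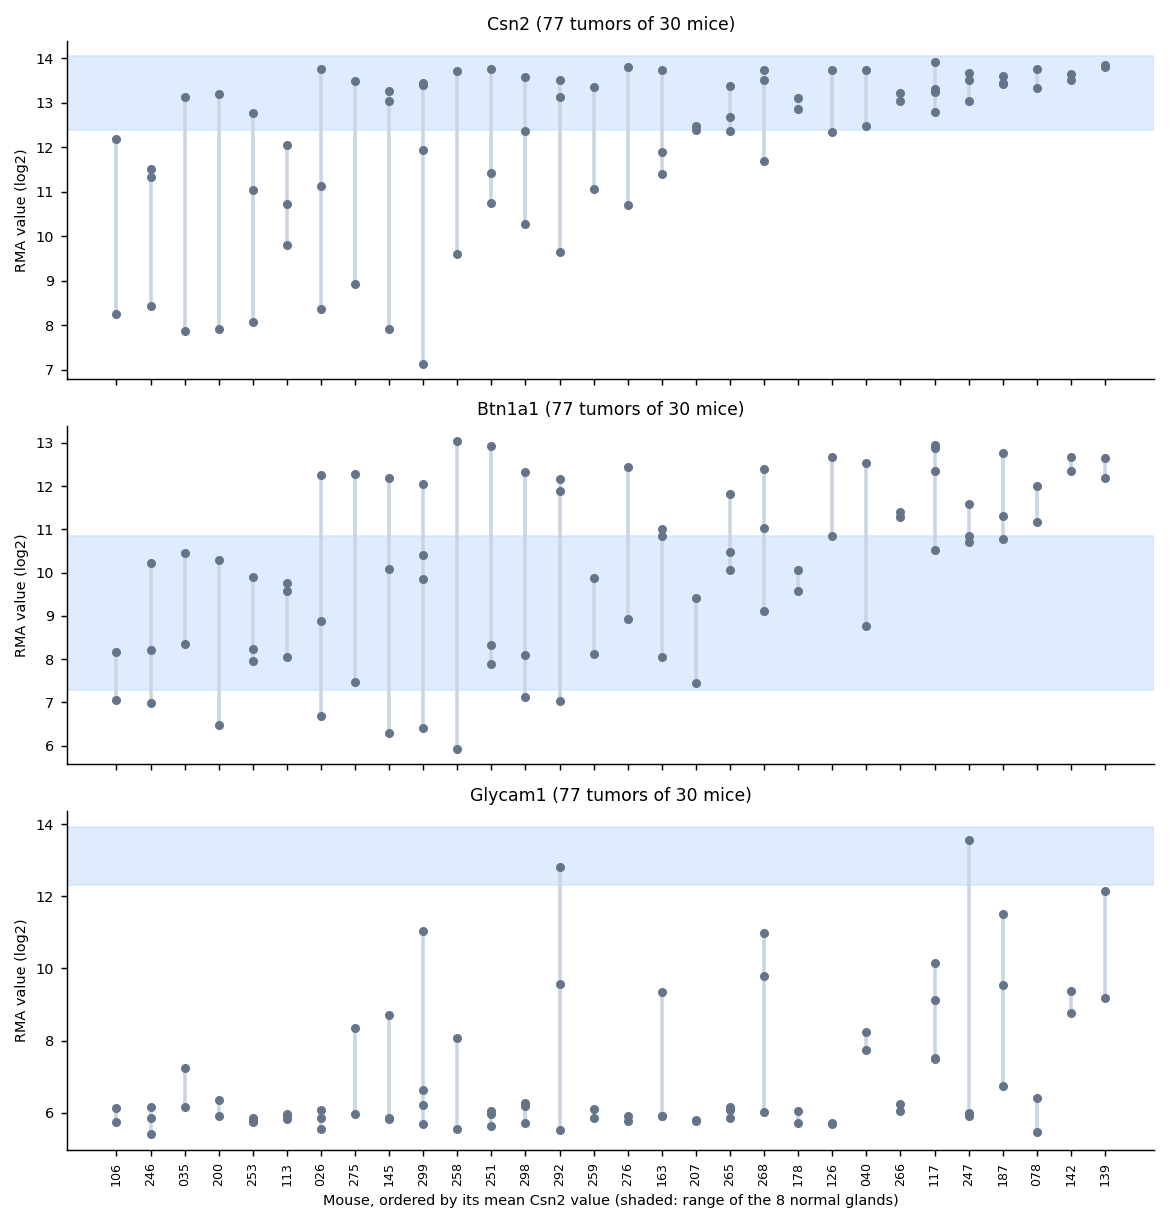
Log2 signal (y axis) of Csn2, Btn1a1 and Glycam1 in wide F1BX tumors of the 30 mice with at least 2 such tumors (x axis, 1 column per mouse in order of mean Csn2), with the tumors of a mouse joined by a line and the range of the glands shaded. Mouse 299 spans 7.14 to 13.45 for Csn2, and 12 of 30 mice have tumors on either side of the Csn2 low point.

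Many mice carried tumors with high and with low casein. Of the 30 mice 12 had tumors on either side of the Csn2 low point, 18 had all tumors above it and 0 had all below. For Btn1a1, 18 mice had tumors on either side. Mouse 299 had Csn2 at 13.45, 11.94, 13.40 and 7.14 in its 4 tumors. The first 2 tumors of mouse 258 had Csn1s1 at 7.16 and 13.11 and Btn1a1 at 5.92 and 13.03, while Csn3 was 12.89 in either. Mouse 247 had Wap at 6.55, 12.34 and 7.09 and Glycam1 at 5.91, 13.57 and 6.01, so that a single tumor of 3 had high levels of both genes. Olah in mouse 187 was 7.58, 11.13 and 6.68. The within-mouse range of Csn2 exceeded 2 log2 units in 18 of 30 mice, and that of Csn3 in 0.

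By name, 2 tumors were measured on an array of each set. The repeat of 035T1 had Csn2 at 8.46, Csn1s2a at 8.10 and Btn1a1 at 7.59, against 7.87, 7.74 and 8.35 in its first array. The repeat of 246T1 had Csn2 at 10.12, Csn1s2a at 10.20, Btn1a1 at 7.38 and Glycam1 at 6.43, against 11.50, 11.56, 8.21 and 5.41. Differences between repeats thus reached 1.39 for Csn2, about the median difference between tumors of the same mouse. The repeat of 246T1 fell just below the Csn2 low point of 10.17, which comes from the wide arrays. It is a narrow array, and lay above the Csn2 low point of the narrow arrays, 9.23.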

How the data were processed

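RNA of 212 mammary tumors (214 arrays) and 8 normal mammary glands was hybridised to Affymetrix mouse gene 1.0 ST arrays. The authors' log2 values, made with RMA in expression console, were used as deposited for 35556 probe sets (2.25 to 14.76). The sources used here give neither software version nor build. Precision is set by how many arrays a group holds, since arrays have no depth. Of the probe sets 21789 carried 1 symbol, 1621 several and 12146 none in the platform annotation.

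Groups came from the labels and mice from the tumor names. Arrays with an interquartile range under 2.8 were kept apart from the others. Groups were compared over all probe sets with limma 3.58.1 (R 4.3.3, statmod 1.5.0), two-sided, with the mouse as a random block (correlation from every 10th probe set, 0.259 over all arrays), p-values adjusted by Benjamini-Hochberg. Each narrow array came from a mouse of its own, so that no block was needed there. Tumors and glands were called at an adjusted p of at most 0.005 and at least 2-fold, other contrasts at an adjusted p under 0.05. Alternatives were a SAM statistic with 100 permutations, 1 array per mouse, quantile normalization, a filter (6 or more on at least 8 arrays, 29949 probe sets), leaving out each gland, and others named in the text. Modes came from a Gaussian density with Silverman's bandwidth (scipy 1.17.1), counted at 5% or more of the highest. The scripts were tested on simulated data.

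The 10 genes, the gene lists and the marker lists were chosen with earlier results of these data known. Named genes were the members, Erbb2, the genes of the lists and, for each member, the 3 genes outside them with the highest Spearman correlation over wide tumors, predicted genes left out. Single tumors and gene neighbours were named after their values were seen. Promoter sequences are RefSeq's (GRCm38.p6), matched by symbol for 7 of the 10 genes. Adipocyte, endothelium and macrophage lists were also read, with 0 and 2, 0 and 6, and 0 and 1 genes called higher and lower in narrow tumors against glands.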

Additional observations from a re-analysis of the deposited data

How the results depend on the processing

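Of 468 alternative values of the members' differences, 423 kept their direction and their side of the threshold, 18 passed it newly, 4 no longer passed it and 23 changed sign. All 23 were of differences that were not called. The cause of these changes was not tested. For tumors against glands over all arrays, 4367 probe sets were called with the set of arrays as a term, with the same 3 members, and the SAM statistic called 5 members. Averaging each repeat array with its first array, also chosen after seeing the data, left the same 3 members called. Within the narrow arrays 1 member, Wap, was called against the wild type glands alone, a setting chosen after seeing the data, where Glycam1 (-5.06, adjusted p = 0.00730) and Xdh (1.07, adjusted p = 0.00521) no longer were, and 4 without the tumors of low Erbb2. For F1 against FVB tumors, 1 member was called with 1 array per mouse and 1 without 051T1 and 063T1. For F1BX against FVB tumors, 1414 probe sets were called with 1 array per mouse, with Btn1a1 still among them (-1.56, adjusted p = 0.0406).

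The labels do not say whether the gland numbers pair the samples. Deviations of same-numbered glands had correlations of 0.05 and -0.04. With only 2 F1 ErbB2 glands, their deviations mirror each other, so these values cannot decide whether the numbers pair the samples. For F1 ErbB2 against F1 wild type glands, the F1 glands alone gave 1186 probe sets and 6 members without the replicate block, and 1028 probe sets and 5 members with it. Leaving out 1 gland gave 51 to 268 probe sets, lowest without F1 ErbB2 replicate 1, against 327 with all, and 0 members. For F1 ErbB2 against FVB ErbB2 glands, leaving out 1 gland gave 1 to 6206 probe sets.

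Signs turned as follows. Against the wild type glands alone, the narrow difference was -0.54 for Btn1a1 and -1.02 for Olah, and without the tumors of low Erbb2 -0.045 for Olah. Leaving out 1 gland moved Olah between -0.063 and 0.30 over all arrays and between -0.094 and 0.27 in the narrow arrays. Between F1BX and F1 wide tumors, Glycam1 was -5.96e-05 after quantile normalization and -0.029 without 051T1 and 063T1, and Csn1s1 was -0.040 with 1 array per mouse and -0.20 without 051T1 and 063T1. Between F1 and FVB ErbB2 glands, leaving out 1 gland moved Btn1a1 between -0.82 and 0.13, Csn1s1 between -0.19 and 0.29, Csn1s2a between -0.26 and 0.14 and Csn2 between -0.56 and 0.072. The number of modes changed in 17 of 36 cases with another bandwidth. No other single-symbol probe set of a member was there to try, and 1 array per mouse leaves the narrow arrays as they are. Leaving out the mice with an array ending in R, chosen after seeing the data, gave 1552 probe sets and 0 members for the mouse effect. Signals near the low end have no detection values, which limits what the lowest Glycam1, Wap and Olah levels show.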
